A study of Equus caballus with 10 samples.

Results

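The small leucine-rich proteoglycans (SLRPs) are secreted matrix proteins built from leucine-rich repeats, most of which carry glycosaminoglycan side chains. The genes described here are asporin (ASPN), biglycan (BGN), decorin (DCN), fibromodulin (FMOD), lumican (LUM), osteoglycin (OGN), PRELP, keratocan (KERA), osteomodulin (OMD) and podocan (PODN). They were taken by gene name from the deposited expression table, in which all 10 of them stand among 29196 genes. SLRPs bind the surface of collagen fibrils, where they control fibril diameter and spacing, and several of them also bind growth factors such as TGF-β. Decorin, biglycan, fibromodulin and lumican are well known components of tendon. By sequence the family is divided into classes, with ASPN, BGN and DCN in class I, FMOD, LUM, PRELP, KERA and OMD in class II, OGN in class III and PODN in class V.

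Primary tenocytes from the superficial digital flexor tendon of adult Thoroughbred or Thoroughbred-type horses were cultured for 14 days in 3D gels of bovine type I collagen, and RNA was sequenced from 5 lines, each from a different donor. Every culture received PF-06650833, an inhibitor of IRAK-4, a kinase of the IL-1 receptor pathway, at 100 nM daily. One group also received 17 ng/ml of IL-1β, renewed every 3 to 4 days (the IL-1β + inhibitor group), and the other received no cytokine (the inhibitor-only group). Each line gave 1 library to each group (5 libraries per group), the lines are called line 1 to line 5, and untreated and IL-1β alone cultures were not analysed here, so differences are those made by IL-1β in the presence of the inhibitor. These were passaged cells in a gel that already contained collagen, which limits them as a model of tendon.

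Values are deposited log2 values after variance stabilization, on which 0 reads is 3.433. Estimated from these values, the libraries held between 26440000 and 35780000 reads on genes. The 17992 genes above that lowest value in at least 5 libraries were tested with limma, and a gene was called differentially expressed at an adjusted p below 0.05 together with an absolute log2 difference of at least 1. All 10 SLRP genes passed this filter, and every one was above the lowest value in all 10 libraries.

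The tenocyte identity was checked against 11 markers, of which 10 were in the table. TNMD, which encodes the tendon protein tenomodulin, was at the value of 0 reads in every library. The tendon transcription factor SCX was at 11.12 ± 0.76 (SD, n = 5) in the inhibitor-only group and at 7.87 ± 0.70 (SD, n = 5) in the IL-1β + inhibitor group. The summed normalized counts of the tenocyte list lay between 815200 and 1425000 in the inhibitor-only group and between 203400 and 845000 in the IL-1β + inhibitor group. The largest single value in these sums was 745800 for COL1A1, which was not called (adjusted p = 0.0682 from limma). In bulk RNA fewer cells of a type and less RNA per cell cannot be told apart, and this applies to each difference below.

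Of the 10 SLRP genes, 5 were lower in the IL-1β + inhibitor group (ASPN, OGN, OMD, PODN and PRELP), 0 were higher, and 5 did not pass (BGN, DCN, FMOD, LUM and KERA). Over all 17992 tested genes 6.68% were called, 3.57% lower and 3.11% higher. The median log2 difference was -1.44 over the 10 genes and -0.00628 over all tested genes. The groups did not overlap for ASPN, OGN, OMD and PODN, where 6.41% of all tested genes had every IL-1β + inhibitor library below every inhibitor-only library. With the tenocyte line as a replicate block the same 5 genes were called, and of all tested genes 8.26% were called, 4.25% lower and 4.01% higher.

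**Figure D1:**
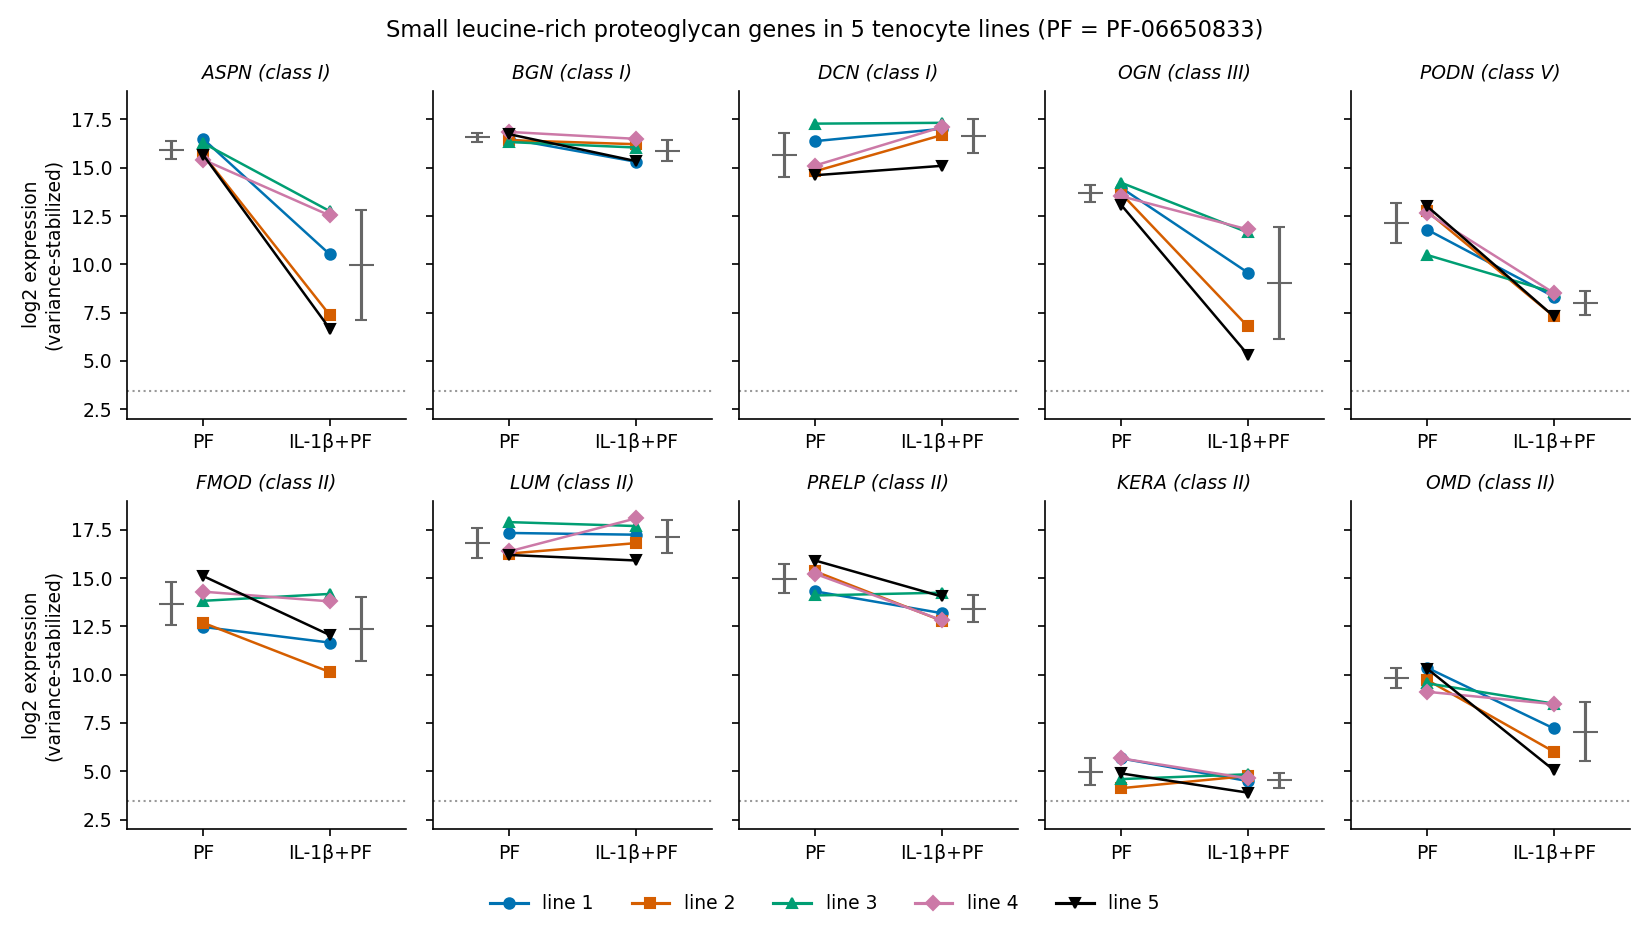
Each panel shows 1 gene, with the variance-stabilized log2 expression on the y axis, the groups on the x axis (PF is PF-06650833), a line joining the 2 libraries of each tenocyte line, and the mean and SD of each group in grey beside the points. The dotted line is the value of 0 reads (3.433). ASPN, OGN, OMD and PODN fell in all 5 lines, DCN and LUM overlapped between the groups, and KERA lay near the bottom in both groups.

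Class I held both the deepest decrease of the family and a gene that was higher in every line. Asporin, an aspartate-rich SLRP that binds collagen and TGF-β, was at 16.49, 15.68, 16.28, 15.42 and 15.67 in lines 1 to 5 in the inhibitor-only group. In the IL-1β + inhibitor group its values were 10.52, 7.38, 12.76, 12.53 and 6.67. All 5 lines were far below their own level with the inhibitor alone and the groups were well apart, but the spread over lines was much wider with IL-1β. ASPN fell from a mean of 15.91 ± 0.45 (SD, n = 5) to one of 9.97 ± 2.84 (SD, n = 5), giving a log2 difference of -5.94 (standard error 1.09, 95% confidence interval -8.34 to -3.54, adjusted p = 0.00482 from limma). On this scale that is 61.3-fold lower, and only 1 of the tested genes had a more negative log2 difference. Among the lines the decrease ranged from 7.42-fold in line 4 to 513-fold in line 5. In normalized counts ASPN went from 43884 or more in each library to between 81.4 and 6899.

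Biglycan, which carries chondroitin or dermatan sulfate chains and can signal through toll-like receptors when soluble, was at 16.50, 16.43, 16.33, 16.86 and 16.74 in the inhibitor-only group. It was at 15.32, 16.22, 16.05, 16.50 and 15.35 in the IL-1β + inhibitor group. It was lower in all 5 lines, which held for 16.8% of all tested genes, and the ranges of the groups overlapped narrowly. The log2 difference of BGN was -0.68 (95% confidence interval -1.26 to -0.11, adjusted p = 0.104 from limma), and it did not pass.

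Decorin, the SLRP that limits lateral fusion of collagen fibrils, was at 16.38, 14.82, 17.28, 15.12 and 14.61 in the inhibitor-only group and at 17.02, 16.69, 17.33, 17.11 and 15.10 in the IL-1β + inhibitor group. It was higher in 5 of 5 lines, as were 16% of all tested genes, by between 0.04 in line 3 and 1.99 in line 4 on the log2 scale. The SD over lines was 1.15 in the inhibitor-only group and 0.89 in the IL-1β + inhibitor group, and the log2 difference of 1.01 (95% confidence interval -0.24 to 2.25, adjusted p = 0.268 from limma) did not pass. With the replicate block the interval was 0.29 to 1.72 (adjusted p = 0.0529 from limma), and DCN did not pass either. In the IL-1β + inhibitor group, line 5 stood apart with the lowest value.

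Differences between members were also taken as the log2 ratio of pairs of genes within each library, which is the difference of their deposited values. The scaling between libraries cancels in it, except where a gene has few reads. The 4 pairs were chosen after the values were seen, so their ratios are a description with no test. The log2 ratio of ASPN to DCN went from 0.27 ± 0.81 (SD, n = 5) to -6.68 ± 2.17 (SD, n = 5), and it was lower in 5 of 5 lines. That of ASPN to BGN went from -0.66 ± 0.63 (SD, n = 5) to -5.91 ± 2.65 (SD, n = 5), also lower in 5 of 5 lines. In both pairs the difference between the groups was larger than the SD of either group.

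Class II held both called and uncalled genes. Osteomodulin, a keratan sulfate SLRP best known from bone, was at 10.36, 9.72, 9.55, 9.11 and 10.31 in the inhibitor-only group and at 7.21, 6.01, 8.50, 8.47 and 5.06 in the IL-1β + inhibitor group. The lowest library with the inhibitor alone was above the highest library with IL-1β. OMD fell from a mean of 9.81 ± 0.53 (SD, n = 5) to one of 7.05 ± 1.52 (SD, n = 5), giving a log2 difference of -2.76 (standard error 0.62, adjusted p = 0.0126 from limma). This call was lost when both libraries of line 1 (adjusted p = 0.0686 from limma) or of line 2 (adjusted p = 0.0661) were left out, and with the replicate block too (0.0719 and 0.0689).

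PRELP, a heparin-binding SLRP that has no glycosaminoglycan chains, was at 14.31, 15.35, 14.10, 15.22 and 15.91 in the inhibitor-only group and at 13.18, 12.79, 14.24, 12.82 and 14.04 in the IL-1β + inhibitor group. It was lower in 4 lines, and in line 3 the values were nearly equal, so that the groups overlapped. The log2 difference was -1.56 (standard error 0.39, adjusted p = 0.0219 from limma). This was the least firm of the 5 calls, since it was lost in 9 of the 15 fits made without 1 library or 1 line, with adjusted p-values over these fits from 0.00877 to 0.120. The libraries whose removal alone ended it were those of lines 2, 4 and 5 in the inhibitor-only group and those of lines 1 and 2 in the IL-1β + inhibitor group, with adjusted p-values between 0.0507 and 0.0591. The lines whose removal ended it were 1, 2, 4 and 5.

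Fibromodulin, which binds collagen I at a site distinct from that of decorin and guides its cross-linking by lysyl oxidase, was at 12.47, 12.68, 13.82, 14.29 and 15.10 in the inhibitor-only group. It was at 11.66, 10.13, 14.18, 13.79 and 12.05 in the IL-1β + inhibitor group. Lines 2 and 5 had log2 differences of -2.55 and -3.05, lines 1 and 4 were lower by less, and line 3 was higher. The groups overlapped and FMOD did not pass (log2 difference -1.31, 95% confidence interval -2.97 to 0.35, adjusted p = 0.277 from limma). This interval includes decreases as large as those of called genes. With the replicate block the interval was -2.40 to -0.23 (adjusted p = 0.0830 from limma), and FMOD did not pass either. Both FMOD and DCN were called, and 7 SLRP genes in all, in the one fit that combined the replicate block with leaving out line 3 (adjusted p = 0.0312 for FMOD and 0.0274 for DCN from limma).

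Lumican, a keratan sulfate SLRP that competes with fibromodulin for collagen binding, was at 17.33, 16.27, 17.89, 16.38 and 16.19 in the inhibitor-only group and at 17.24, 16.81, 17.69, 18.08 and 15.91 in the IL-1β + inhibitor group. It was lower in 3 lines and higher in 2, with a log2 difference of 0.33 (95% confidence interval -0.69 to 1.36, adjusted p = 0.693 from limma). The positive sign rested on line 4, without which the difference was -0.00914. The log2 ratio of OMD to LUM went from -7.00 ± 0.91 (SD, n = 5) to -10.10 ± 0.73 (SD, n = 5) and was lower in 5 of 5 lines. OMD was down to 15.2 normalized counts in line 5 with IL-1β, where the deposited scale understates this ratio. For PRELP against its neighbour FMOD the log2 ratio was 1.30 ± 0.95 (SD, n = 5) and 1.05 ± 1.48 (SD, n = 5), a difference smaller than either SD.

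Keratocan, a keratan sulfate SLRP best known from the cornea, had few reads throughout, with normalized counts between 2.50 and 31.4 in the inhibitor-only group and between 1.10 and 11.1 in the IL-1β + inhibitor group. One read corresponded to a normalized count between 1.049 and 1.42. Its log2 values were 5.66, 4.12, 4.59, 5.66 and 4.89 against 4.49, 4.76, 4.84, 4.63 and 3.89, with a log2 difference of -0.46 (95% confidence interval -1.17 to 0.24, adjusted p = 0.375 from limma). It was lower in 3 lines and higher in 2, and the groups overlapped.

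The members of classes III and V were both lower. Osteoglycin, also called mimecan, was at 13.96, 13.67, 14.23, 13.53 and 13.07 in the inhibitor-only group and at 9.57, 6.79, 11.66, 11.81 and 5.33 in the IL-1β + inhibitor group. As for ASPN, the groups were clearly apart and lines 2 and 5 were by far the lowest with IL-1β. OGN fell from a mean of 13.69 ± 0.44 (SD, n = 5) to one of 9.03 ± 2.90 (SD, n = 5), giving a log2 difference of -4.66 (standard error 1.11, 25.3-fold lower, adjusted p = 0.0167 from limma). Its decrease ranged from 3.30-fold in line 4 to 214-fold in line 5 on the deposited scale. In normalized counts OGN went from 8605 to 21.6 in line 5. The call was lost without line 1 (adjusted p = 0.0735 from limma) or line 2 (adjusted p = 0.0814), with log2 differences of -4.73 and -4.11, but it was kept there with the replicate block (adjusted p = 0.0350 and 0.0315).

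Podocan, an SLRP known to restrain smooth muscle cell growth, was at 11.79, 12.74, 10.49, 12.65 and 13.00 in the inhibitor-only group and at 8.33, 7.31, 8.55, 8.52 and 7.31 in the IL-1β + inhibitor group. The 5 libraries with IL-1β lay close together and below all of those with the inhibitor alone. PODN fell from a mean of 12.13 ± 1.03 (SD, n = 5) to one of 8.003 ± 0.64 (SD, n = 5), giving a log2 difference of -4.13 (standard error 0.46, 17.5-fold lower, adjusted p = 3.86e-04 from limma). It had the smallest adjusted p of the 10 genes, and with ASPN it was called in every fit made and at an adjusted p below 0.01, at which the other 3 were not called.

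**Figure D2:**
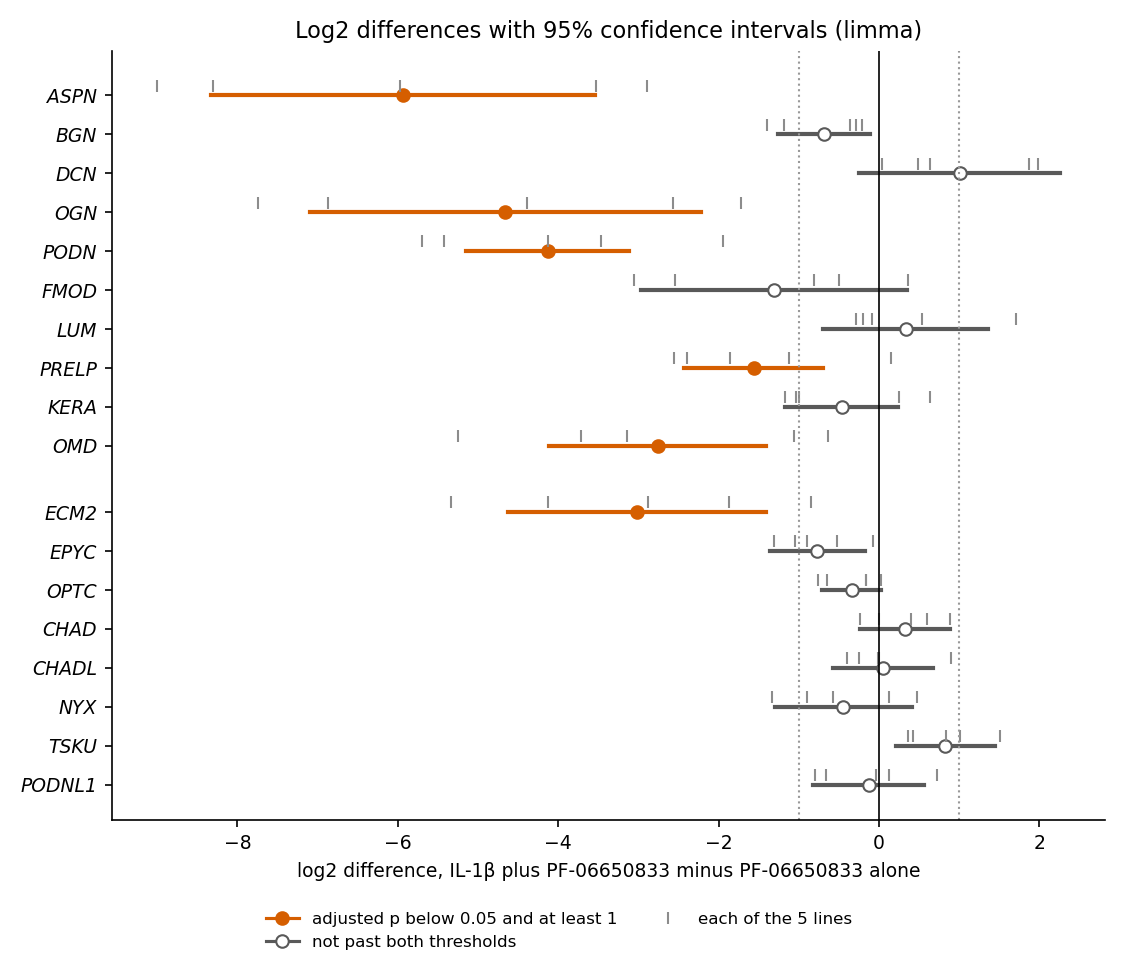
The x axis gives the log2 difference (IL-1β + inhibitor minus inhibitor-only) of the 10 SLRP genes and, below the gap, of 8 further genes of the family, with 95% confidence intervals from limma. Filled orange points passed both thresholds, open grey points did not, small ticks mark the 5 tenocyte lines and dotted lines mark a log2 difference of 1 in either direction. Called genes ranged from -1.56 for PRELP to -5.94 for ASPN, and all of them were lower.

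Of 8 further genes of the family or related to it, only ECM2 was called, and it was lower. ECM2, a matrix protein with leucine-rich repeats, was at 11.92, 11.92, 12.03, 11.48 and 11.29 in the inhibitor-only group and at 9.04, 7.79, 10.16, 10.63 and 5.95 in the IL-1β + inhibitor group. The groups did not overlap, and the log2 difference was -3.01 (standard error 0.73, adjusted p = 0.0182 from limma), with the call lost without line 1 (adjusted p = 0.0782) or line 2 (0.0935) but kept there with the replicate block (0.0412 and 0.0404). Tsukushi (TSKU), a secreted SLRP that modulates BMP and WNT signalling, was higher in 5 of 5 lines, with a log2 difference of 0.83 (adjusted p = 0.0713 from limma) and did not pass. With the replicate block the adjusted p of TSKU was 0.0118 (limma), but its log2 difference stayed below the minimum. TSKU passed when line 4 in the IL-1β + inhibitor group was left out (log2 difference 1.04, adjusted p = 0.0147). Epiphycan (EPYC), a cartilage SLRP, was lower in 5 of 5 lines, with a log2 difference of -0.77 (adjusted p = 0.0788 from limma), with normalized counts of at most 51.4. With the replicate block the adjusted p of EPYC was 0.0409 (limma), again with a log2 difference short of the minimum. EPYC passed without line 3 in the inhibitor-only group (log2 difference -1.004, adjusted p = 0.00884). PODNL1 (log2 difference -0.13), OPTC (-0.34), NYX (-0.44), CHAD (0.33) and CHADL (0.05) did not pass, and their adjusted p-values (limma) lay between 0.207 and 0.929. Of these, OPTC, NYX, CHAD and CHADL had normalized counts of at most 73.7 in any library.

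Several SLRP genes lie side by side in the genome, and the decreases followed this arrangement in part. In the RefSeq gene table of the horse assembly TB-T2T, which is not the EquCab3.0 build used for the values and served here only for gene order, ECM2, ASPN, OMD and OGN follow each other. All of these were called lower, and all lie inside the span of CENPP, which encodes a centromere protein. CENPP itself was at 8.81 ± 0.67 (SD, n = 5) in the inhibitor-only group and at 8.64 ± 0.66 (SD, n = 5) in the IL-1β + inhibitor group (log2 difference -0.18, adjusted p = 0.801 from limma). The next genes on either side were NOL8 (log2 difference -0.31, adjusted p = 0.0521 from limma) and IPPK (0.12, adjusted p = 0.626), and neither passed. CENPP and IPPK were chosen after the values were seen. Strand handling was not stated, so reads shared between CENPP and the genes inside it could not be separated by strand.

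EPYC, KERA, LUM and DCN form a second run of neighbours. None of them was called over all 10 libraries on the deposited values, with or without the replicate block. BTG1, an antiproliferative gene beside DCN, had a log2 difference of 0.66 (adjusted p = 0.0650 from limma). In the third run, FMOD, PRELP and OPTC, only PRELP was called, and BTG2 on its outer side had a log2 difference of 0.09 (adjusted p = 0.895). BGN and PODN stand alone, beside ATP2B3 (log2 difference 0.25, adjusted p = 0.679) and SCP2 (0.09, adjusted p = 0.681).

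**Figure D3:**
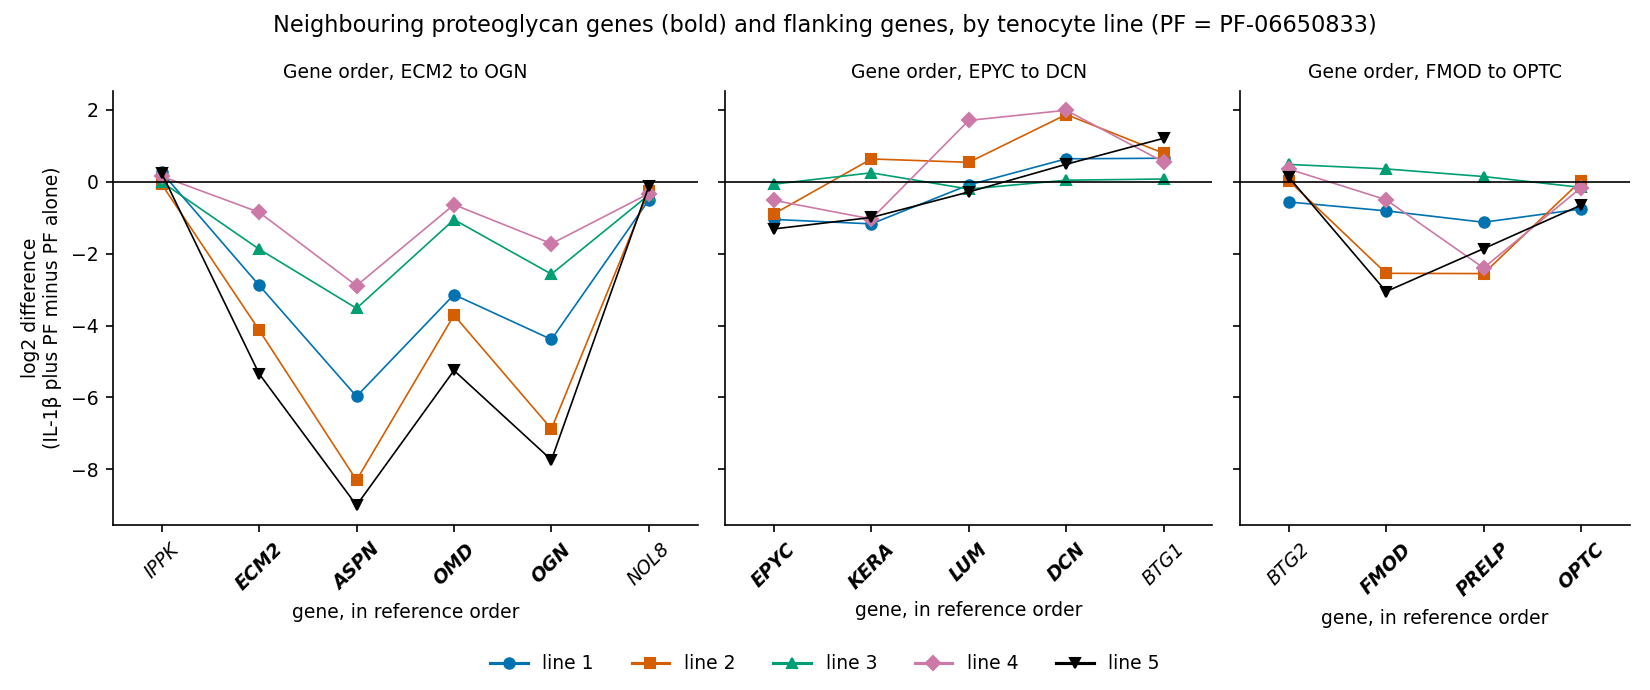
The x axis lists genes in the order of the reference gene table, not to scale, for the 3 runs of neighbouring SLRP genes (bold) with flanking genes, and the y axis gives the log2 difference (IL-1β + inhibitor minus inhibitor-only) of each tenocyte line. In the run from ECM2 to OGN the lines keep the same order at every SLRP gene, with line 5 lowest and line 4 highest, and the flanking genes IPPK and NOL8 lie near 0. The points of the run from EPYC to DCN lie between -1.31 and 1.99.

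The genes of the ECM2 to OGN run shared their ranking of lines. For ECM2, ASPN, OMD and OGN alike, the log2 difference was lowest in line 5, followed by line 2, line 1, line 3 and line 4. This order was noticed in these values, and 2.91% of all tested genes showed it. It was not particular to the run, since SFRP2 and MFAP5, named below and outside it, had the same order. The share among lowered genes alone was not taken. On the deposited scale, line 5 was 513-fold lower for ASPN, 214-fold for OGN, 40.6-fold for ECM2 and 38.1-fold for OMD. Line 4 was 7.42-fold, 3.30-fold, 1.80-fold and 1.55-fold lower. In normalized counts, line 5 went from 52220 to 81.4 for ASPN and from 8605 to 21.6 for OGN. For ECM2 it went from 2483 to 42.0 and for OMD from 1245 to 15.2. PODN and FMOD also had their lowest differences in lines 2 and 5, though in another order of the remaining lines. In total 5 of the 10 SLRP genes had lines 2 and 5 lowest, against 19.1% of all tested genes. That share also covers raised and unchanged genes, and here too the share among lowered genes was not taken. Of the called genes named below, ITGA11, SFRP2 and COMP also had lines 2 and 5 lowest, while COL11A1 and COL12A1 did not. Among the SLRP genes, DCN did not have lines 2 and 5 lowest, and its largest increases were in lines 4 and 2.

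The spread between lines widened for some of these genes. For ASPN the SD over lines in the IL-1β + inhibitor group was 6.26 times that in the inhibitor-only group, for OGN 6.62 times and for ECM2 5.86 times. The median ratio over all tested genes was 1.11, and 2.34% of them had a ratio above 4. For PODN the ratio was 0.621 and for PRELP 0.908, so these decreases came without a wider spread.

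Genes with the most similar pattern were sought by the root mean square difference of the 5 per-line log2 differences, over tested genes with a symbol. For ASPN these were OGN (1.30), the collagen-binding integrin gene ITGA11 (1.34) and the secreted WNT modulator gene SFRP2 (1.50). For OGN they were ITGA11 (1.16), WSCD2 (1.18) and the collectin gene COLEC12 (1.24). For OMD they were the microfibril gene MFAP5 (0.24), the water channel gene AQP1 (0.33) and ECM2 (0.44). For PODN they were RUNX1T1 (0.67), COMP (0.77) and LMCD1 (0.86), and for PRELP they were ISM2 (0.33), ALPK3 (0.34) and ELMOD1 (0.34). SFRP2 (log2 difference -5.18) and ITGA11 (-5.11) were themselves called lower, with adjusted p-values from limma of 0.00140 and 0.00628, as were the others named except 4. Those were MFAP5 (log2 difference -2.78, adjusted p = 0.0536 from limma) and the 3 genes nearest to PRELP, which are ISM2 (-1.36, adjusted p = 0.192), ALPK3 (-1.46, 0.0862) and ELMOD1 (-1.37, 0.184). With the replicate block MFAP5, ALPK3 and ELMOD1 passed, and ISM2 did not. In this measure a small distance also follows from a small difference, so distances were not compared between genes.

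The make-up of the SLRP transcripts differed between the groups, while the ranges of their total overlapped. The 10 genes together took between 0.853% and 1.78% of the normalized counts of a library in the inhibitor-only group (median 1.00%) and between 0.439% and 1.43% in the IL-1β + inhibitor group (median 0.949%). Compared within lines, this total was lower with IL-1β in lines 1 (1.32% to 0.949%), 2 (0.853% to 0.806%), 3 (1.78% to 1.43%) and 5 (1.00% to 0.439%). In line 4 it was higher (0.929% to 1.43%). Within the counts of the 10 genes ASPN took between 12.2% and 19.2% in the inhibitor-only group and between 0.0477% and 1.40% in the IL-1β + inhibitor group. DCN and LUM together took between 26.6% and 65.2% in the inhibitor-only group and between 60.5% and 83.7% in the IL-1β + inhibitor group, and their share was higher in all 5 lines. The share of BGN overlapped widely, with 13.3% to 32.9% in the inhibitor-only group and 11.9% to 26.1% in the IL-1β + inhibitor group. These are shares of reads, not corrected for transcript length, so they compare libraries and not genes. They are parts of one total, so a lower ASPN by itself raises the shares of the other genes.

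**Figure D4:**
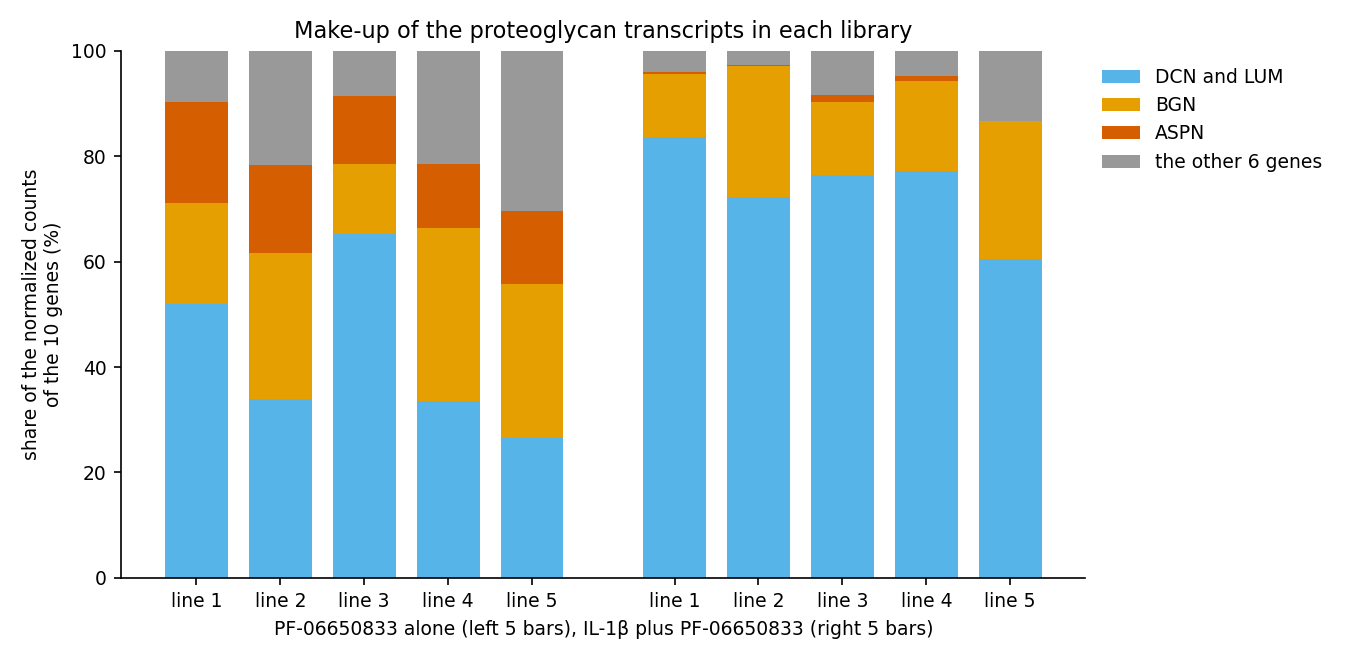
Each bar is 1 library, and the y axis gives the share of the normalized counts of the 10 SLRP genes in percent, with the 5 lines of the inhibitor-only group on the left and of the IL-1β + inhibitor group on the right. ASPN shrinks from at least 12.2% to at most 1.40%, and DCN with LUM makes up at least 60.5% of each bar with IL-1β.

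Among the genes that work with SLRPs, the collagens that passed the test were lower. Over all tested genes 3.57% were called lower and 3.11% higher. Of 11 tested collagens of SLRP-coated fibrils, 3 were lower and 0 higher, with a median log2 difference of -1.10. These were COL11A1 (log2 difference -3.46, adjusted p = 0.00344 from limma), a minor fibrillar collagen, COL12A1 (-2.74, adjusted p = 0.00473), a collagen of the fibril surface, and COL5A1 (-1.10, adjusted p = 0.0468), which starts fibril assembly. The call of COL5A1 was lost in 11 of the 15 fits without a library or line, with log2 differences between -1.33 and -0.92. With the replicate block 6 were lower, the additions being COL1A1, COL1A2 and COL6A3, where 4.25% of all tested genes were called lower. COL3A1 was not analysed here.

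The counts for the lists in this and the next paragraph stand beside 6.68% of all tested genes called, and 8.26% with the replicate block. Of 20 tested chondroitin and dermatan sulfate chain enzymes, 1 was higher, B3GALT6 of the linkage region (log2 difference 1.01, adjusted p = 0.00473 from limma), and 19 did not pass. Without the minimum fold change, 6 of the 20 had an adjusted p below 0.05, as did 2782 of all 17992 tested genes. The log2 difference of B3GALT6 was close to the minimum of 1 and dropped below it, to 0.92 at the lowest, in 9 of the 15 fits without a library or line, at adjusted p-values of at most 0.0397. With the replicate block 2 of the 20 were called, 1 higher and 1 lower. Of 8 keratan sulfate chain enzymes, 2 were higher and both are sulfotransferases, CHST2 (log2 difference 1.55, adjusted p = 0.00241 from limma) and CHST4 (1.93, adjusted p = 0.0225), and the call of CHST4 was lost in 7 of the 15 fits.

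Of 11 tested proteases known to cut SLRPs, 2 were higher and 0 lower, with a median log2 difference of 0.716. MMP3, the matrix metalloproteinase stromelysin, was at 5.96 ± 1.03 (SD, n = 5) in the inhibitor-only group and at 11.36 ± 2.47 (SD, n = 5) with IL-1β, a log2 difference of 5.40 (adjusted p = 0.00542 from limma). MMP9, a gelatinase, had a log2 difference of 2.09 (adjusted p = 0.0182) and lost its call without line 1, 2 or 5. With the replicate block 3 were higher, the addition being MMP8, a neutrophil collagenase (log2 difference 2.26, adjusted p = 0.0373 with the block and 0.0793 without it). Of 15 ligands and receptors of SLRPs 1 was lower, a share near that of all tested genes. It was LOX, which encodes the collagen cross-linking enzyme that fibromodulin binds (log2 difference -2.37, adjusted p = 0.0172 from limma), and this call too was lost without line 1, 2 or 5. TGFB1, TGFB2 and TGFB3 did not pass, with log2 differences of -0.27, 0.41 and -0.96.

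Markers of cell types moved with the groups as well, and for each list the range of its summed normalized counts is given first for the inhibitor-only group and then for the IL-1β + inhibitor group. The counts stand beside 6.68% of all tested genes called, and 8.26% with the replicate block. Of 9 tested tenocyte markers 4 were lower (6 with the replicate block), among them SCX (log2 difference -3.24), MKX (-2.85) and COMP (-3.63). Of 5 tested chondrocyte markers 3 were lower, ACAN, SOX6 and SOX9, and 1 was higher, SOX5, and their summed normalized counts went from between 4826 and 14000 to between 490 and 834.6. Of 5 mural cell markers 3 were lower, DES, RGS5 and CSPG4, with sums of 3703 to 36800 and 4238 to 13100. The largest single value in these sums was 32520 for MYH11, which did not pass (adjusted p = 0.678 from limma). For the synovial lining 1 of 2 markers was lower, CD55 (2 with the replicate block), with sums of 100.4 to 6069 and 5.48 to 124.9. The largest single value in these sums was 6000 for PRG4, which passed only with the block (adjusted p = 0.0590 without it from limma). The epithelial list had only CDH1 to test, which was lower, with EPCAM and KRT5 at 0 reads, and sums of 532.4 to 1571 and 43.1 to 442.2. Of 2 tested adipocyte markers ADIPOQ was higher, with LEP at 0 reads, and sums of 17.8 to 167 and 362 to 2326. Of 2 tested leukocyte markers CD68 was higher and ITGAM did not pass (adjusted p = 0.568 from limma). CD3E was at 0 reads, and PTPRC, CSF1R and CD79A were above it in too few libraries to be tested. The sums were 61.3 to 119 and 171 to 754, with a largest single value of 737.9 for CD68. The 4 tested endothelial markers and the 1 tested Schwann cell marker did not pass, with sums of at most 45.9 and 12.8 normalized counts. The part of any of these in the SLRP differences was not tested.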

How the data were processed

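RNA was sequenced from 10 libraries of equine tenocytes, 5 with PF-06650833 alone and 5 with IL-1β plus PF-06650833, as paired-end reads of 150 bp per the labels. Lines 1 to 5 are those labelled 090811, 130911, 180412, 250718B and CD, and the labels gave the groups and the lines. Reads were checked with FastQC (version 0.11.9) and quantified by the authors with Salmon (version 1.8) on the EquCab3.0 transcriptome with GC-bias correction, then summed to genes with tximport, and the submitters' processing notes also name DESeq2 (version 1.36). The authors deposited log2 values for 29196 genes. The transformation was recognised as variance stabilization from the lowest value, shared by all libraries, and was inverted from that value to give normalized counts, on which the depth estimates rest.

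Groups were compared in R (version 4.3.3) with limma (version 3.58.1), in which the variance followed the mean level (trend), with no term for the line, since the methods of the study name none. The fit took the 17992 genes with more than the lowest value in 5 or more libraries. P-values were adjusted over all of these by Benjamini-Hochberg. The fit was also run on simulated counts with no line effect and the same spread setting in both groups. Such a simulation cannot show how the fit behaves for genes whose spread widened, such as ASPN and OGN. The libraries of a line come from the same donor and deviated together from their group means (correlation across genes between 0.367 and 0.506 for the 5 pairs, against -0.266 to 0.0869 for the 20 other pairs). A fit with the line as a replicate block was run beside the fit without a line term. Named genes were the 10 members, 8 further genes of the family, up to 3 called genes of each list by smallest adjusted p, the 3 genes nearest in pattern to each called member, and genes directly flanking a member. Genes named outside this rule, such as CENPP, IPPK, SOX5, TGFB1, TGFB2, TGFB3 and those called only with the block, were chosen after their values were seen. The members and lists, and the alternatives, were chosen with earlier results of these data known. Of the gene names, 23397 were found in the RefSeq table of TB-T2T. ECMX and SLC1A7, which flank BGN and PODN there, were not analysed here. Each line gave 1 library per group. P-values from the fit without the block measure the spread of libraries within a group, which includes differences between donors. Those with the block measure the spread of the per-line differences.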

Additional observations from a re-analysis of the deposited data

Results flagged for a closer look

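Among 116 groups of 5 libraries of the named genes, 7 had 1 library far from the other 4, where chance gives about 5.8, or 1 in 20. DCN was at 15.1 in line 5 with IL-1β plus PF-06650833, against 16.69 to 17.33 in the other lines, and without this library its log2 difference was 1.39 (adjusted p = 0.115 from limma). EPYC was at 4.774 in line 3 with PF-06650833 alone, against 5.788 to 6.157, and at 5.396 in line 4 with IL-1β plus PF-06650833, against 4.706 to 4.9, on 10.02 and 23.28 normalized counts. Among the chain enzymes, B3GALT6 was at 8.822 in line 4 with IL-1β plus PF-06650833, against 9.437 to 9.63, and CHST2 at 10.81 in line 3 with PF-06650833 alone, against 9.724 to 9.823. CDH1 was at 10.64 in line 4 with PF-06650833 alone, against 9.113 to 9.47. NOL8 was at 11.45 in line 3 with PF-06650833 alone, against 11.15 to 11.23.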

How the results depend on the processing

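Of the 58 named genes tested, 29 kept their direction and call in every fit made (up to 30 per gene), 15 lost the call in at least 1, 8 gained it in at least 1, and 6 genes that were never called changed sign; no called gene reversed. The number of SLRP genes called was 5 with the replicate block, on the scale of log2(normalized count + 1) or + 0.5, under quantile normalization, centring on the median, the other filters and the other variance models, and it was 2 at an adjusted p below 0.01. It ranged from 2 to 5 when a library or line was left out, and was 2 without line 1 or line 2. With the replicate block as well it ranged from 3, without line 1 or line 2, to 7, without line 3. In the fit with no block, 5 were called without line 3, and 4 without line 4 or line 5. Each of these fits leaves out 2 libraries, and the cause of the differences between them was not tested. The median log2 difference over the 10 genes ranged from -1.86 to -1.09 in these fits. Over all genes 1202 were called, 1486 with the replicate block, 1809 with the replicate block on log2(normalized count + 1), which was chosen after seeing the data, 2782 with no minimum fold change, 719 at an adjusted p below 0.01, and between 762 and 1422 with a library or line left out (up to 1677 with the replicate block as well). Of the genes in the other lists 25 were called, 16 at an adjusted p below 0.01, and 15 to 33 with a library or line left out (up to 35 with the replicate block as well). With the replicate block no call of an SLRP gene changed. Centring on the median moved the median of all genes from -0.00628 to 0.0237. KERA, EPYC, OPTC, NYX, CHAD and CHADL had normalized counts of at most 73.7 in any library, and whether depth kept them from passing was not tested.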
